A study of Homo sapiens with 6 samples.

Results

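RMG1, an established line derived from clear cell carcinoma (CCC) of the ovary, was compared with OVCAR3, which serves as a model line of high-grade serous carcinoma (HGSC). All 3 RMG1 arrays, of which 1 received siControl and the others siCPNE8 #A and #B, were set against all 3 OVCAR3 arrays, of which 1 received siControl and the others siBHLHE41 #A and #B. All siRNAs were delivered by lipid transfection. These 6 arrays are the whole series, 1 Affymetrix Clariom S array per siRNA, and no array was left out. The siRNA against the calcium-dependent phospholipid-binding protein CPNE8 was used only in RMG1 and the siRNA against the transcription factor BHLHE41 only in OVCAR3, so the lines differ in the target of the siRNA as well as in histotype. The labels give DMEM as the medium of RMG1 and RPMI as the medium of OVCAR3, the study's methods give them the other way round, and in either case medium and line cannot be told apart. Each histotype is represented by 1 line. No source says that the arrays of a line came from separate cultures, and the p-values below measure only the spread among 3 arrays that received different siRNAs.

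Both histotypes are epithelial. CCC is linked to endometriosis, and its cells are filled with glycogen and express secreted and membrane proteins otherwise known from kidney and liver. HGSC arises largely from the epithelium of the fallopian tube, retains Mullerian transcription factors such as WT1 and PAX8, and often expresses the cell cycle inhibitor encoded by CDKN2A strongly. The comparison asks which genes set RMG1 apart from OVCAR3 beyond these textbook markers.

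The values are log2 signals, so a difference of 1 is a doubling, and a positive difference means higher in RMG1. A probe was taken as above background when it exceeded the 95th percentile of that array's 612 negative controls, a level between 7.86 and 8.47. Between 37.2% and 41.2% of the 21448 transcript probes passed it. Over the transcript probes, r was 0.99 to 0.993 between arrays of 1 line and 0.92 to 0.928 between arrays of different lines. The difference between the lines held 86.3% of the total sum of squares. With limma, an adjusted p under 0.05 and a difference of at least 1, 2302 probes were higher in RMG1 and 2609 were lower. Over the 17687 named genes these were 1986 higher genes, or 11.2%, and 2281 lower genes, or 12.9%, with a median difference of 0.02 over all named genes. Genes above background on all 3 RMG1 arrays and on no OVCAR3 array numbered 426 among those called higher (2.41% of named genes), and 421 (2.38%) among those called lower showed the opposite pattern. In the plot of mean levels these genes lie to the upper left and lower right of the dotted background lines, some of them close to where the lines cross.

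**Figure D1:**
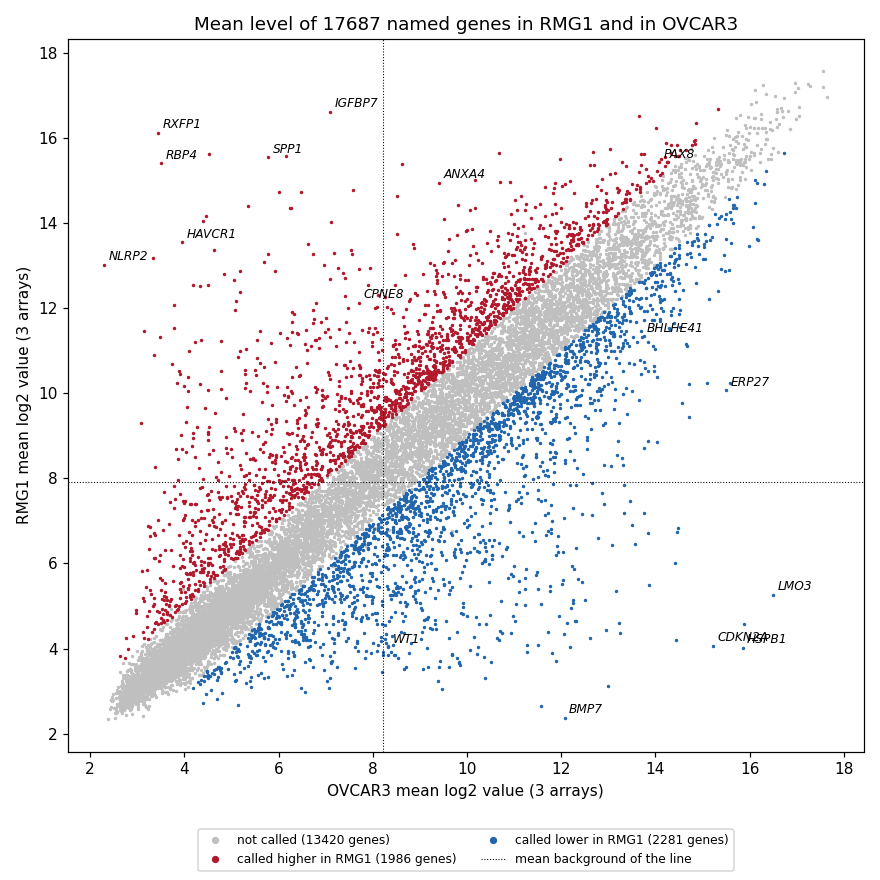
Mean log2 value of each named gene in RMG1 (vertical axis) against OVCAR3 (horizontal axis), 3 arrays each. The 1986 genes called higher in RMG1 are red, the 2281 called lower are blue, and dotted lines mark the mean background of each line; RXFP1, RBP4 and NLRP2 stand far above the diagonal, and LMO3, HSPB1 and CDKN2A far below it.

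Where a gene was above background on no array of 1 line, only a bound on its fold difference is given. This "at least" fold sets the mean of the brighter line against the mean, over the dim line's arrays, of the higher of the background level and the gene's own value. Values below background have no order among themselves. The highest values, up to 18.35, exceed 16, the log2 of a 16-bit scale, so the deposited scale was stretched in a way no source used here describes, and folds carry that uncertainty.

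The 3 marker genes of CCC separated the lines widely. RXFP1, the receptor of the hormone relaxin, read 15.96, 16.22 and 16.19 in RMG1, against 3.36, 3.49 and 3.46 in OVCAR3. It was bright on every RMG1 array and below background on every OVCAR3 array, at least 242-fold higher in RMG1 (log2 difference 12.69 ± 0.16 SE, adjusted p = 1.14e-09). SPP1, which encodes the secreted phosphoprotein osteopontin, read 15, 15.93 and 15.70 in RMG1, against 6.02, 5.45 and 5.88 in OVCAR3, at least 162-fold higher in RMG1 (adjusted p = 4.11e-08). HAVCR1, a membrane glycoprotein of injured proximal tubules of the kidney, read 13.56, 13.50 and 13.56 in RMG1, against 3.86, 4.59 and 3.38 in OVCAR3. The HAVCR1 values did not overlap between the lines and gave at least a 40.4-fold higher level in RMG1 (adjusted p = 5.61e-08).

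The 2 marker genes of HGSC were called lower in RMG1. CDKN2A, whose transcripts encode the cell cycle inhibitors INK4A and ARF, read 4.47, 3.90 and 3.84 in RMG1, against 15.14, 15.54 and 14.99 in OVCAR3. It was below background throughout RMG1 and at least 158-fold lower there (log2 difference -11.15 ± 0.23 SE, adjusted p = 1.19e-08). WT1, a transcription factor of the Mullerian and serous lineages, read 3.55, 4.21 and 4.31 in RMG1, against 8.71, 8.23 and 8.05 in OVCAR3. WT1 was called lower (log2 difference -4.31, adjusted p = 2.44e-06), but only 2 of the 3 OVCAR3 arrays lay above background, so the bound is no more than a 1.34-fold lower level in RMG1.

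The labelled histotypes were checked against the wider marker lists. NAPSA, which encodes the CCC marker napsin A, was below background on all 6 arrays, with means of 4.49 in RMG1 and 4.50 in OVCAR3. GPX3, a secreted glutathione peroxidase often high in CCC, was bright in both lines at 15.08 in RMG1 and 14.91 in OVCAR3 and was not called (difference 0.17). TFPI2, a protease inhibitor used to detect CCC, averaged 14.49 in RMG1 and 13.55 in OVCAR3, a difference of 0.94 under the size required. The serous markers ESR1 and PGR, the receptors of estrogen and progesterone, were below background on all arrays of both lines, and so was MSLN, which encodes mesothelin. PAX8, a Mullerian transcription factor, was bright in both and 2.52-fold higher in RMG1 (adjusted p = 0.000415), and MECOM, another transcription factor of the serous list, was 6.38-fold higher in RMG1 (adjusted p = 7.87e-05). These genes go against the labels in part: RMG1 lacked 1 defining CCC marker at this sensitivity, and OVCAR3 lacked several serous ones.

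**Figure D2:**
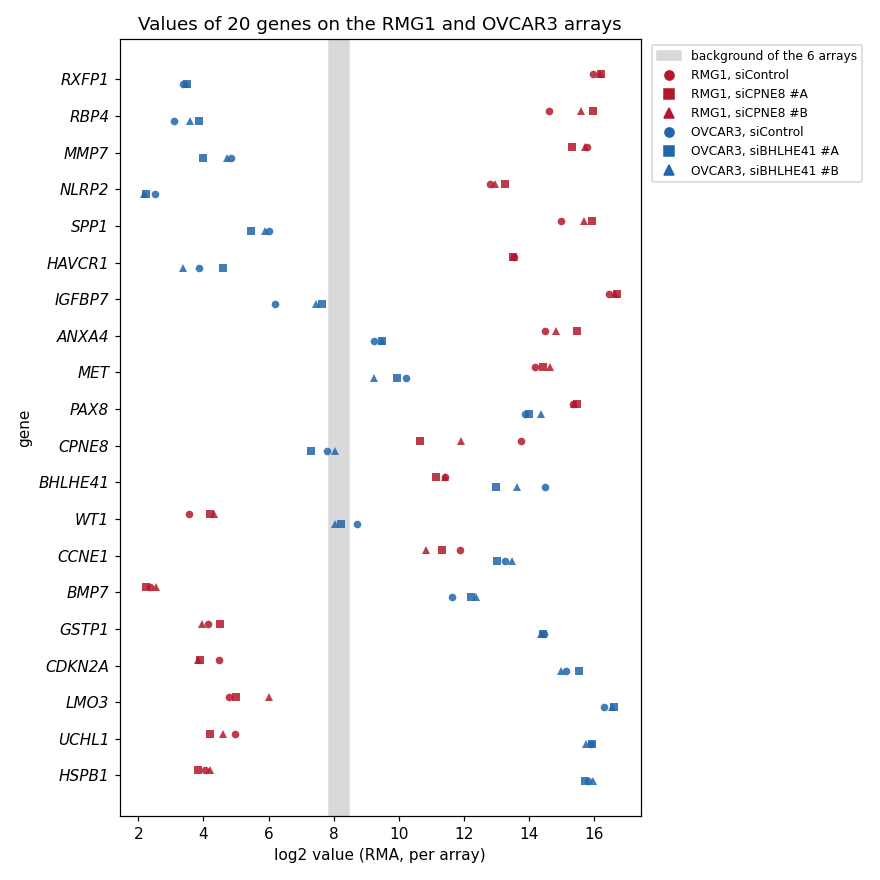
Log2 values of 20 genes on each array, with RMG1 in red and OVCAR3 in blue, 1 symbol per siRNA, and the range of the background levels in grey. RXFP1, SPP1 and HAVCR1 were bright only on RMG1 arrays, HSPB1, UCHL1 and CDKN2A only on OVCAR3 arrays, and WT1 in OVCAR3 lay at the edge of the background.

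Of 26 genes listed as CCC markers, 23 were measured, 16 were higher in RMG1 and 0 were lower, or 69.6% and 0%. Their median difference was 2.33, or 1.42 with dim lines set to background, beside 0.02 and 0.0 for all named genes. The list includes genes that the study had linked to CCC in tumours, and RXFP1, SPP1 and HAVCR1. By quantitative PCR the study had already placed RXFP1 among the genes highest in RMG1 relative to OVCAR3. The share called higher is thus not independent of earlier results on these lines. ANXA4, a calcium-dependent annexin, read 14.49, 15.47 and 14.85 in RMG1, against 9.23, 9.49 and 9.50 in OVCAR3. Both lines were above background, and ANXA4 was 46.3-fold higher in RMG1 (adjusted p = 5.56e-07). RBP4, the plasma carrier of retinol, read 14.62, 15.97 and 15.62 in RMG1, against 3.08, 3.85 and 3.59 in OVCAR3, at least 147-fold higher in RMG1 (adjusted p = 5.56e-08). NALF1, listed for CCC by the study under an older symbol, was at least 8.07-fold higher (adjusted p = 8.73e-06), although its RMG1 values of 10.07, 12.22 and 11.36 spread over more than 2 log2 units.

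Of 27 measured genes of the serous and Mullerian list, 16 were lower in RMG1 and 3 were higher, with a median difference of -2.40, or -1.28 with dim lines set to background. EMX2, a homeobox transcription factor of the urogenital tract, read 5.03, 5.04 and 4.21 in RMG1, against 11.44, 12.21 and 12.24 in OVCAR3. EMX2 was below background in RMG1 and at least 16.6-fold lower there (adjusted p = 3.24e-07). WFDC2, which encodes the serum marker HE4, read 7.02, 7.71 and 6.83 in RMG1, against 13.15, 13 and 13.85 in OVCAR3, at least 42.8-fold lower in RMG1 (adjusted p = 7.46e-07). MUC16, which encodes the antigen CA125, was above background in both lines and 6.27-fold lower in RMG1 (adjusted p = 1.06e-05). The kallikrein KLK6 and the homeobox cofactor MEIS1 were at least 5.83-fold and 7.50-fold lower.

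Genes taken from terms that the study had found for tumours followed their histotype only in part. Of 36 measured genes from the terms higher in CCC tumours, 11 were higher in RMG1 (30.6%) and 4 were lower (11.1%), beside 11.2% and 12.9% of all named genes. Their median difference was 0.26, or 0.0 with dim lines set to background, and 14 of the 36 were below background on all arrays. IGFBP7, a secreted binder of insulin-like growth factors, read 16.47, 16.71 and 16.65 in RMG1, against 6.19, 7.64 and 7.47 in OVCAR3, at least 339-fold higher in RMG1 (adjusted p = 1.93e-07). CDKN1A, a cyclin-dependent kinase inhibitor, and MITF, a transcription factor, were at least 5.73-fold and 3.36-fold higher, whereas the homeobox gene DLX5 was lower (difference -3.44, adjusted p = 0.000847). Of 43 measured genes from the terms higher in HGSC tumours, 20 were lower in RMG1 (46.5%) and 2 were higher (4.65%), with a median of -0.56. With dim lines set to background the median was -0.07. Only 12 of the 20 lower genes were above background on all arrays of a line, and 17 of the 43 were below background on all arrays. EYA2, a transcriptional coactivator, was at least 4.02-fold lower (adjusted p = 3.6e-05), and NTNG1, a membrane-anchored netrin, ran the other way and was at least 1.83-fold higher (adjusted p = 2.35e-06).

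**Figure D3:**
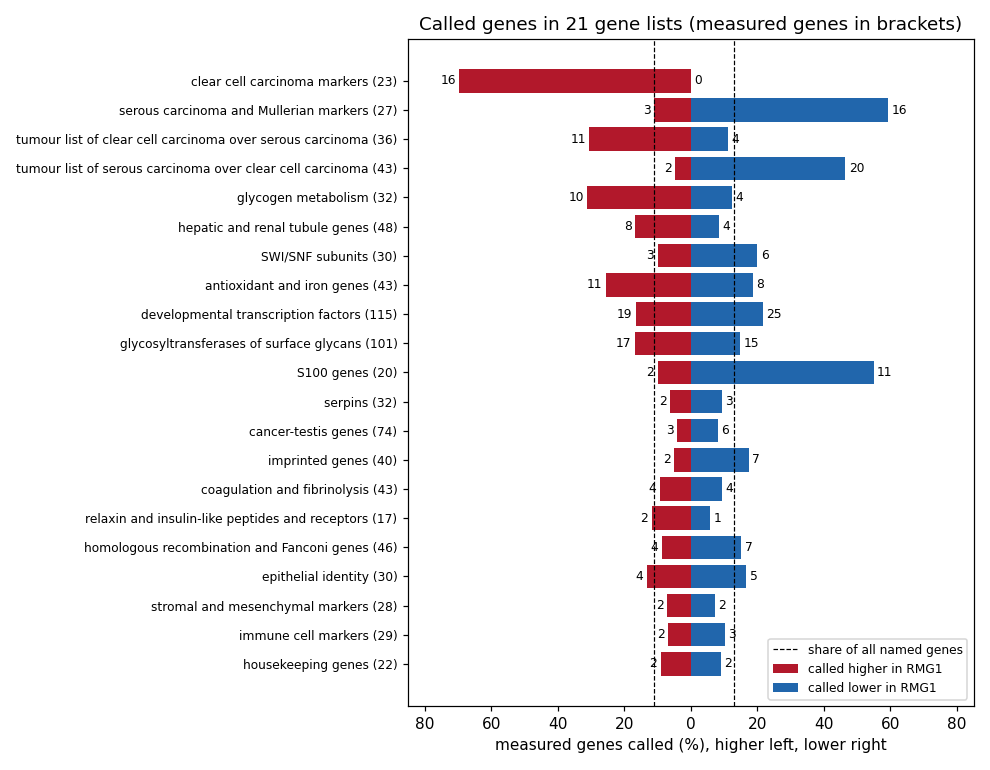
Share of the measured genes of each list called higher (red, left) or lower (blue, right) in RMG1, with the number of genes at the end of each bar and, dashed, the shares of all named genes, 11.2% and 12.9%. The CCC marker list reaches 69.6% on the left, and the serous marker and S100 lists reach 59.3% and 55.0% on the right.

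Beyond the marker lists, the 30 genes with the largest differences of the fitted log2 values in favour of RMG1, among those with non-overlapping arrays and above background on all RMG1 arrays, had differences between 7.41 and 12.69. All 30 were above background on no OVCAR3 array, with bounds between 6.49-fold and 339-fold, so both the choice of these 30 and their order rest in part on OVCAR3 values below background. ANXA4, with a 46.3-fold difference measured in both lines, is outside the set. Several of them encode secreted or matrix proteins. MMP7, the matrix metalloproteinase matrilysin, read 15.79, 15.32 and 15.74 in RMG1, against 4.84, 3.99 and 4.72 in OVCAR3, at least 170-fold higher in RMG1 (adjusted p = 1.75e-08). TNFRSF11B, the decoy receptor osteoprotegerin, was at least 71.5-fold higher, and NTN4, a laminin-related netrin of basement membranes, at least 71.0-fold. KITLG, the ligand of the receptor KIT, read 14.53, 13.95 and 14.69 in RMG1, against 5.41, 4.65 and 6 in OVCAR3, at least 72.6-fold higher in RMG1. Its receptor KIT was called higher too but lay below background on all arrays, with means of 5.83 in RMG1 and 3.10 in OVCAR3, so no level can be given for it.

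Transporters and enzymes were also among these 30 genes. SLC43A3, a transporter of purine nucleobases, read 14.85, 13.09 and 14.56 in RMG1, against 4.31, 4.72 and 4.34 in OVCAR3, at least 62.4-fold higher in RMG1 (adjusted p = 3.39e-07). SLC10A2, the bile acid transporter of ileum and renal tubule, read 12.29, 12.50 and 13.15 in RMG1, against 5.43, 5.03 and 4.68 in OVCAR3. It lay below background throughout OVCAR3 and was at least 21.7-fold higher in RMG1 (adjusted p = 1.8e-07). KCNJ16, a subunit of inward-rectifier potassium channels of the renal tubule, was at least 35.6-fold higher. ACSL5, which activates long-chain fatty acids, was at least 57.4-fold higher. NNMT, nicotinamide N-methyltransferase, was at least 6.49-fold higher, and its 3 RMG1 values of 9.92, 12.24 and 10.55 differed widely among themselves, with a bound of 4.08 without the siCPNE8 #A array.

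Regulators of development and of the germ line were present as well. NLRP2, a protein of the oocyte complex that supports early embryos, read 12.81, 13.28 and 12.97 in RMG1, against 2.52, 2.23 and 2.16 in OVCAR3. It was at least 28.1-fold higher in RMG1 (adjusted p = 5.15e-09). SALL1, a zinc finger factor required for kidney formation, was at least 8.58-fold higher (adjusted p = 2.28e-07). SOHLH2, a transcription factor of germ cells, and the read-through transcript CCDC169-SOHLH2 were at least 19.9-fold and 14.7-fold higher, and since they share exons their signals are not independent. H2BC14, H1-5 and H3C11, which encode histones H2B, H1 and H3, were at least 31.4-fold, 91.3-fold and 29.4-fold higher, but histone genes are near-identical in sequence and the probes may share signal with their copies. DNAJC15, a cochaperone of the mitochondrial inner membrane, read 15.41, 15.73 and 15.60 in RMG1, against 5.26, 6.56 and 6.67 in OVCAR3, at least 166-fold higher in RMG1.

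The 30 genes with the largest fitted differences in the other direction had differences of 7.20 to 11.82 in size. All 30 were above background on no RMG1 array, so their choice rests likewise on values below background, and CCL28, a chemokine with a bound of 46.3-fold, and WFDC2 with its bound of 42.8-fold are outside the set. HSPB1, a small heat shock protein, read 4.05, 3.84 and 4.19 in RMG1, against 15.83, 15.73 and 15.98 in OVCAR3. It was below background throughout RMG1, at least 245-fold lower (log2 difference -11.82 ± 0.17 SE, adjusted p = 1.91e-09). GSTP1, the pi-class glutathione S-transferase that conjugates electrophiles and drugs, read 4.14, 4.50 and 3.95 in RMG1, against 14.47, 14.45 and 14.38 in OVCAR3, at least 91.8-fold lower in RMG1 (adjusted p = 5.15e-09). The 3 values of each line lay within less than 1 unit for both genes.

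Genes known from neurons and from patterning of the embryo were also in this set. UCHL1, a deubiquitinating enzyme abundant in neurons, read 4.96, 4.20 and 4.60 in RMG1, against 15.92, 15.93 and 15.77 in OVCAR3, at least 249-fold lower in RMG1 (adjusted p = 6.19e-09). LMO3, a LIM-only transcriptional cofactor, read 4.79, 5.01 and 6 in RMG1, against 16.30, 16.61 and 16.56 in OVCAR3, at least 381-fold lower in RMG1 (adjusted p = 3.97e-08). NCAM1, the neural cell adhesion molecule, SEMA3A, a guidance cue of axons, and EPHA3, an ephrin receptor, were at least 92.8-fold, 33.8-fold and 14.9-fold lower. BMP7, a morphogen of the TGF-beta family, read 2.37, 2.22 and 2.55 in RMG1, against 11.63, 12.21 and 12.38 in OVCAR3, at least 17.9-fold lower in RMG1 (adjusted p = 1.75e-08). Its relative BMP4 was at least 17.8-fold lower, while BMP6, chosen here after its values were seen, was at least 4.56-fold higher. The imprinted gene MEST was at least 39.9-fold lower, and TSHR, the thyrotropin receptor, at least 19.4-fold.

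Among genes above background on all 6 arrays, where the fold is measured on both sides, 870 were called higher and 979 lower. Those named here for their large differences were chosen after their values were seen. Besides ANXA4, TINAGL1, a matricellular protein, was 28.7-fold higher in RMG1 (adjusted p = 1.68e-07). MET, the receptor of hepatocyte growth factor, read 14.19, 14.45 and 14.66 in RMG1, against 10.22, 9.95 and 9.25 in OVCAR3, 24.6-fold higher in RMG1 (adjusted p = 1.9e-06). The hyaluronan receptor CD44 was 23.8-fold higher and the transcription factor RUNX2 19.2-fold higher. In the opposite direction ERP27, a protein of the endoplasmic reticulum, read 9.77, 10.61 and 9.82 in RMG1, against 14.83, 15.76 and 15.92 in OVCAR3, 43.2-fold lower in RMG1 (adjusted p = 2.73e-06). The carbonic anhydrase CA2 and the microsomal epoxide hydrolase EPHX1 were 40.9-fold and 36.3-fold lower, and FADS2, a fatty acid desaturase, 28.9-fold.

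Sequences before the transcription start are shown for genes that were bright in 1 line and below background in the other, because they differ in the density of CG dinucleotides, the site of DNA methylation; CG is in capitals. They are the 250 bases upstream of the RefSeq start in GRCh38.p14, written 5′ to 3′ on the strand of the gene. SPP1 (chr4:87975464-87975713, plus strand) and MMP7 (chr11:102530748-102530997, minus strand), bright in RMG1, hold 3 CG each. Of 2 starts of CDKN2A, the first (chr9:21995325-21995574, minus strand) has 24 and the second (chr9:21974858-21975107, minus strand) has 20, and the array value does not tell the transcripts apart. GSTP1 (chr11:67583562-67583811, plus strand) has 28 and HSPB1 (chr7:76302423-76302672, plus strand) has 19, both bright in OVCAR3.
SPP1: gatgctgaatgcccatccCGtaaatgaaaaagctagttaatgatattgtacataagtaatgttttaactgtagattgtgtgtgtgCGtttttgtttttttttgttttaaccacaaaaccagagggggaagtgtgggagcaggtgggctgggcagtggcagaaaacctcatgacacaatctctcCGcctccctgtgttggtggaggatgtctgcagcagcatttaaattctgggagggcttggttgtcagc
MMP7: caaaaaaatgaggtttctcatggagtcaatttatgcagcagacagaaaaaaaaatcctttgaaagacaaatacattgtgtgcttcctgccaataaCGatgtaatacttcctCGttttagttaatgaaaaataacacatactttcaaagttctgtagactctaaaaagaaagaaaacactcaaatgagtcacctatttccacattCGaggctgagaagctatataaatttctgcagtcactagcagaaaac
CDKN2A first start: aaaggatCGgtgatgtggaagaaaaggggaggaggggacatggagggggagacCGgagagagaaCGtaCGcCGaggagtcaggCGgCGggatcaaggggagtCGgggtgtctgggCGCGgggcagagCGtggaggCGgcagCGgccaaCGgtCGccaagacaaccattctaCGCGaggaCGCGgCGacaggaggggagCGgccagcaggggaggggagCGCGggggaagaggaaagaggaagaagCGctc
CDKN2A second start: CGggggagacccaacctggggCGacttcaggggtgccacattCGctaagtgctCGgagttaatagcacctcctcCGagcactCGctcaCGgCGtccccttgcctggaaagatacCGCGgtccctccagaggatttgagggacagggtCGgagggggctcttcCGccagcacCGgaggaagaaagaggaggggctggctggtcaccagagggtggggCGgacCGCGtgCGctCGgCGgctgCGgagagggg
GSTP1: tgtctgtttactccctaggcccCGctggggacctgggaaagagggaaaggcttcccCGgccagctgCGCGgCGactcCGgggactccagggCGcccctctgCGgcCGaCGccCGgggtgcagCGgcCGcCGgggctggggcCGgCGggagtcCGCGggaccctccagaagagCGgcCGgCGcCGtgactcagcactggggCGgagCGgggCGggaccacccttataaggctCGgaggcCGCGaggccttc
HSPB1: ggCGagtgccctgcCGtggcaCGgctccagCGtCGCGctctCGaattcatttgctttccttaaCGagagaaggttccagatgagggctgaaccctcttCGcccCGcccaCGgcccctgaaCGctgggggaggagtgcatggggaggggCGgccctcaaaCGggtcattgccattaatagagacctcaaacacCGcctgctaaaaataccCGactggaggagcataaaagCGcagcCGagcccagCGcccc

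These 5 genes were picked as examples, and the called genes as a whole did not divide this way. A promoter was matched for 14250 of the 17687 named genes, 20090 starts in all. The median number of CG was 19 for starts of genes called higher in RMG1, 18 for those called lower and 17 for all named genes. For genes bright in RMG1 only it was 17, for genes bright in OVCAR3 only 16, and for genes above background on all 6 arrays and not called 21. The motif GTTAAT, which some POU-homeodomain factors bind in a palindrome of 2 inverted copies with 1 base between them, was searched on both strands. It stood in 4.38% of starts of genes called higher, 4.17% of those called lower and 5.08% of all, and the whole palindrome stood in 1 of all starts and in 0 of the called genes. DNA methylation was not analysed here.

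Glycogen metabolism, the storage pathway that gives clear cells their appearance, had 32 measured genes. Of these, 10 were higher in RMG1 (31.2%) and 4 lower (12.5%), beside 11.2% and 12.9% of all named genes. The median difference was 0.23, or 0.0 with dim lines set to background. Of the 10 higher genes 8 were above background on all arrays of a line, and 14 of the 32 were below background on all arrays. PYGL, the liver isoform of glycogen phosphorylase, read 12.26, 12.22 and 12.38 in RMG1, against 7.16, 7.44 and 7.63 in OVCAR3, at least 17-fold higher in RMG1 (adjusted p = 1.93e-07). The brain isoform PYGB ran the other way, with 7.67, 7.30 and 7.44 in RMG1 and 9.50, 9.58 and 9.88 in OVCAR3, at least 3.34-fold lower in RMG1 (adjusted p = 2.08e-05). Each isoform was thus above background in 1 line only. PPP1R3B, which targets a phosphatase to glycogen, was at least 4.10-fold higher, and G6PC3, a glucose-6-phosphatase, 6.72-fold higher. PGM2L1, glucose-1,6-bisphosphate synthase, and the kinase GSK3B were lower, with differences of -4.36 and -1.78.

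Antioxidant and iron genes divided in both directions, with 11 of 43 measured genes higher (25.6%), 8 lower (18.6%) and a median difference of 0.11. The shares of all named genes were 11.2% and 12.9%, and the median of the list with dim lines set to background was 0.0. The glutathione peroxidase GPX1 read 11.65, 12.34 and 11.87 in RMG1, against 6.83, 6.87 and 6.52 in OVCAR3, at least 13.4-fold higher in RMG1 (adjusted p = 3.3e-07). GPX7, of the same family, was at least 7.11-fold higher, while GPX4, which protects membrane lipids, was lower with a difference of -1.28. SLC7A11, the cystine transporter that feeds glutathione synthesis, read 14.15, 13.15 and 14.23 in RMG1, against 11.29 after siControl and 9.38 and 9.34 after the siBHLHE41 siRNAs in OVCAR3. It was 14.3-fold higher in RMG1 (adjusted p = 0.000346), and 22.4-fold higher without the OVCAR3 siControl array. Some genes of iron handling were lower in RMG1: the ferroxidase CP was 4.82-fold lower and the iron transporter SLC11A2 4.05-fold lower, and the exporter SLC40A1 had a difference of -2.37.

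The list counts of this paragraph stand beside 11.2% higher and 12.9% lower of all named genes. Among hepatic and renal tubule genes 8 of 48 were higher (16.7%) and 4 were lower (8.33%). Only 2 of the 8 higher genes but all 4 lower genes were above background on all arrays of a line. Of the 48, 35 were below background on all arrays. DPP4, a peptidase of the brush border, was higher (difference 5.22, adjusted p = 1.45e-06). LRP2, which encodes the tubular receptor megalin, read 4.86, 4.86 and 4.53 in RMG1, against 8.65 after siControl and 9.91 and 11.99 after siBHLHE41 #A and #B in OVCAR3. It was at least 4.82-fold lower in RMG1, a bound of 2.58 without the siBHLHE41 #B array and of 8.21 without the OVCAR3 siControl array. The other lower genes were ANPEP, SERPINA1 and APOE. ANPEP was at least 4.47-fold lower (2.9 without the siBHLHE41 #B array), SERPINA1 at least 4.06-fold, and APOE 5.45-fold. Of 30 SWI/SNF chromatin remodelling subunits 3 were higher and 6 lower, and ARID1A, often mutated in CCC, was not called, at 11.48 in RMG1 and 12.01 in OVCAR3. Of 46 homologous recombination and Fanconi genes 4 were higher, with BRIP1, RAD51C and BRCA1 9.26-fold, 7.66-fold and 4.76-fold higher, and 7 were lower. These 3 helicase, recombinase and repair genes all lie on chromosome 17. Glycosyltransferases of surface glycans had 17 of 101 higher and 15 lower, with the sialyltransferase ST6GAL2 at least 10.2-fold lower and the mucin enzyme GCNT3 at least 3.84-fold higher. Developmental transcription factors had 19 of 115 higher and 25 lower, and 77 were below background in both lines. Among serpins 2 of 32 were higher and 3 lower, among cancer-testis genes 3 of 74 and 6, and among imprinted genes 2 of 40 and 7. Coagulation and fibrinolysis genes had 4 of 43 in each direction, with TFPI, the inhibitor of tissue factor, at least 20-fold higher in RMG1 (adjusted p = 1.54e-08). Of the relaxin and insulin-like peptides and receptors 2 of 17 were higher and 1 lower.

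The S100 genes, which encode small calcium-binding proteins, were mostly lower in RMG1: 11 of 20 measured genes were lower (55%), 2 were higher (10%), and the median difference was -1.09. With dim lines set to background the median was 0.0, because 9 of the 20 were below background in both lines. S100A8 read 3.85, 4.19 and 4.24 in RMG1, against 13.14, 9.23 and 12.12 in OVCAR3, at least 12-fold lower in RMG1 (adjusted p = 9.8e-05). That bound was 6.79 without the OVCAR3 siControl array and 26.3 without the siBHLHE41 #A array. S100A6 was 8.82-fold lower, and S100A10, the partner of annexin A2, was lower with a difference of -2.17. S100A16 ran the other way, 7.19-fold higher (adjusted p = 1.93e-06).

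Most epithelial markers were detected in both lines: of 30 measured, 24 to 25 were above background on each RMG1 array and 25 to 27 on each OVCAR3 array. EPCAM, KRT7, KRT8 and KRT18 were above background on all 6 arrays and not called, with differences between -0.74 for KRT8 and 0.47 for EPCAM. Of 30 epithelial genes 4 were higher (13.3%) and 5 lower (16.7%), beside 11.2% and 12.9% of all named genes. The cadherin CDH1 was 3.41-fold higher in RMG1, and the small GTPase RAB25 24.7-fold lower. JUP and KRT19 were 4.75-fold and 2.27-fold higher, and MUC1, below background in OVCAR3, at least 4.58-fold higher. CLDN3 and ELF3 were below background on all RMG1 arrays, at least 3.42-fold and 1.81-fold lower. The neural cadherin CDH2 was at least 14.9-fold lower, and fibronectin, FN1, was 7.86-fold higher. Markers of other cell types were near background: of 28 stromal genes 2 lay above it on each RMG1 array and 3 to 4 on each OVCAR3 array, and of 29 immune genes 0 to 1 and 1. The immune gene above background in OVCAR3 was NCAM1, and the defining markers PTPRC, DCN and PECAM1 were below background in both lines. Of 22 measured housekeeping genes, 2 were higher and 2 lower (9.09% each), with a median difference of -0.11.

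The shares of called genes differed between chromosomes. Of the 290 named genes placed on chromosome 13, 43.1% were higher in RMG1 and 5.17% were lower, beside 11.2% and 12.9% of all named genes. The share of higher genes there lay between 31.4% and 44.8% over the fits that kept dim probes. Chromosome 4 had 21.4% higher (14.9% to 23.3% over the same fits) and chromosome 17 had 19.8% (16.2% to 21.7%). Chromosome 21 had 24.5% lower (15.9% to 25.5%), chromosome 3 had 22.8% (18.2% to 23.4%) and chromosome 7 had 22.2% (17.4% to 23.4%). The fit with dim probes left out tests fewer genes. With it included, the highest shares of higher genes were 69.1% on chromosome 13, 32.8% on chromosome 4 and 38.3% on chromosome 17. Those of lower genes were 47.0% on chromosome 21, 36.1% on chromosome 3 and 35.1% on chromosome 7. These chromosomes were singled out after their values were seen. DNA copy number was not analysed here.

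**Figure D4:**
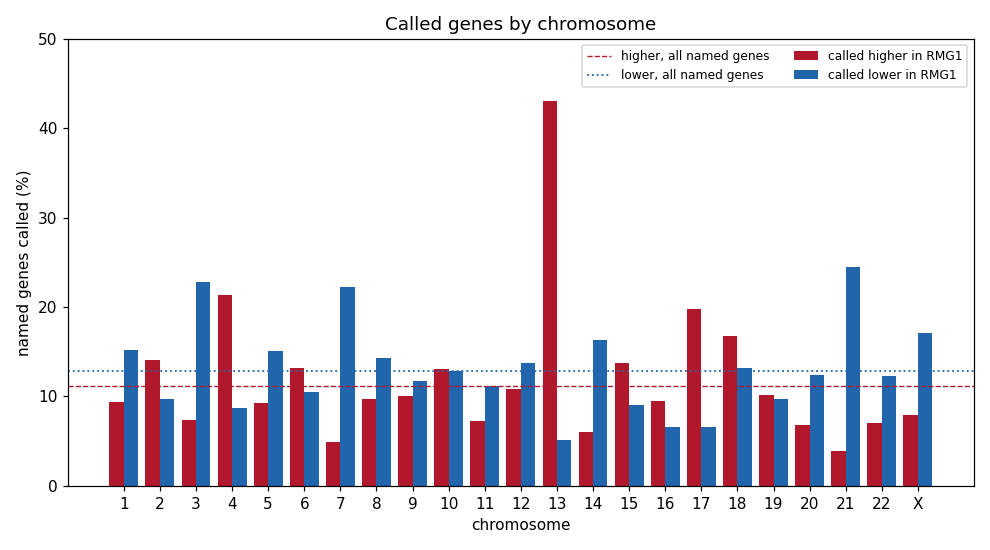
Share of the named genes of each chromosome called higher (red) or lower (blue) in RMG1, in percent, with the shares of all named genes, 11.2% and 12.9%, as horizontal lines. The tallest red bar is chromosome 13, at 43.1%, and the tallest blue bar is chromosome 21, at 24.5%.

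Among the genes of chromosome 13, RB1, the retinoblastoma tumour suppressor, read 13.83, 13.98 and 13.98 in RMG1, against 11.20, 11.15 and 11.20 in OVCAR3. The arrays of each line agreed closely, and RB1 was 6.70-fold higher in RMG1 (adjusted p = 1.75e-06). KLF5, an epithelial Krueppel-like factor, was 4.39-fold higher (adjusted p = 9.75e-06), and the repair endonuclease ERCC5 2.28-fold. DNAJC15, SOHLH2, CCDC169-SOHLH2 and SLC10A2, given above among the 30 genes higher in RMG1, are 4 further genes of this chromosome.

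Runs of at least 5 neighbouring measured genes called in the same direction were counted along the RefSeq gene order. There were 44 such runs, 16 higher and 28 lower in RMG1, with 5 higher runs on chromosome 13, 5 higher runs on chromosome 17 and 7 lower runs on chromosome 3. Runs could hold genes below background on all 6 arrays, such as PCDHB5. Read-through transcripts such as CCDC169-SOHLH2 and BIVM-ERCC5 were counted apart from the genes they join. The 44 is thus not a count of independent expressed neighbours, and no number to set beside it was computed. The longest run, of 11 genes, held the zinc finger genes from ZNF808 to ZNF816 on chromosome 19, all called higher in RMG1. ZNF600 was below background on all 6 arrays, and the other 10 differed by 1.52 to 3.15 on the log2 scale. Of these, ZNF83, ZNF888, ZNF816-ZNF321P, ZNF321P and ZNF816 were above background on no OVCAR3 array, with bounds of only 1.41-fold to 3.25-fold. Neighbouring zinc finger genes share sequence and may share signal. On chromosome 17, HOXB2, HOXB-AS3, HOXB5, HOXB6, HOXB7, HOXB8 and HOXB9 formed a run of 7. HOXB6 read 12.09, 11.79 and 12.63 in RMG1, against 5.26, 4.89 and 5.13 in OVCAR3, at least 15.6-fold higher in RMG1 (adjusted p = 1.21e-07), and HOXB8 was called but below background in both lines.

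Lower runs surrounded 2 genes known from amplification in ovarian carcinoma, but DNA copy number in these lines was not tested. POP4, PLEKHF1, C19orf12, CCNE1 and URI1 on chromosome 19 were lower in RMG1 by 1.04 to 2.96 in size. PLEKHF1 read 8.39, 8.19 and 8.10 in RMG1, against 8.67, 8.91 and 10.22 in OVCAR3 (limma adjusted p = 0.0479). Its call, and so the length of this run, rests largely on the siBHLHE41 #B array. C19orf12 was below background on all RMG1 arrays, at least 3.32-fold lower. CCNE1, cyclin E1, read 11.89, 11.33 and 10.84 in RMG1, against 13.26, 13.02 and 13.47 in OVCAR3, 3.72-fold lower in RMG1 (adjusted p = 0.000484). The next expressed neighbour on 1 side, ZNF507, differed by 0.06 and was not called. On the other side the next one, ZNF254, differed by 0.84 and was not called. On chromosome 11 a run of 10 genes from AQP11 to USP35 was lower by 1.26 to 4.96 in size, and its chromatin remodelling gene RSF1 read 11.03, 11.25 and 11.15 in RMG1, against 14.56, 14.61 and 14.75 in OVCAR3, 11.3-fold lower in RMG1 (adjusted p = 5.89e-07). EMSY, a partner of BRCA2 on the same chromosome, was 7.67-fold lower. Next to CDKN2A, MTAP, an enzyme of methionine salvage, was 12.3-fold lower in RMG1 (adjusted p = 1.19e-05) but above background on all 3 RMG1 arrays, whereas CDKN2B was below background in both lines.

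**Figure D5:**
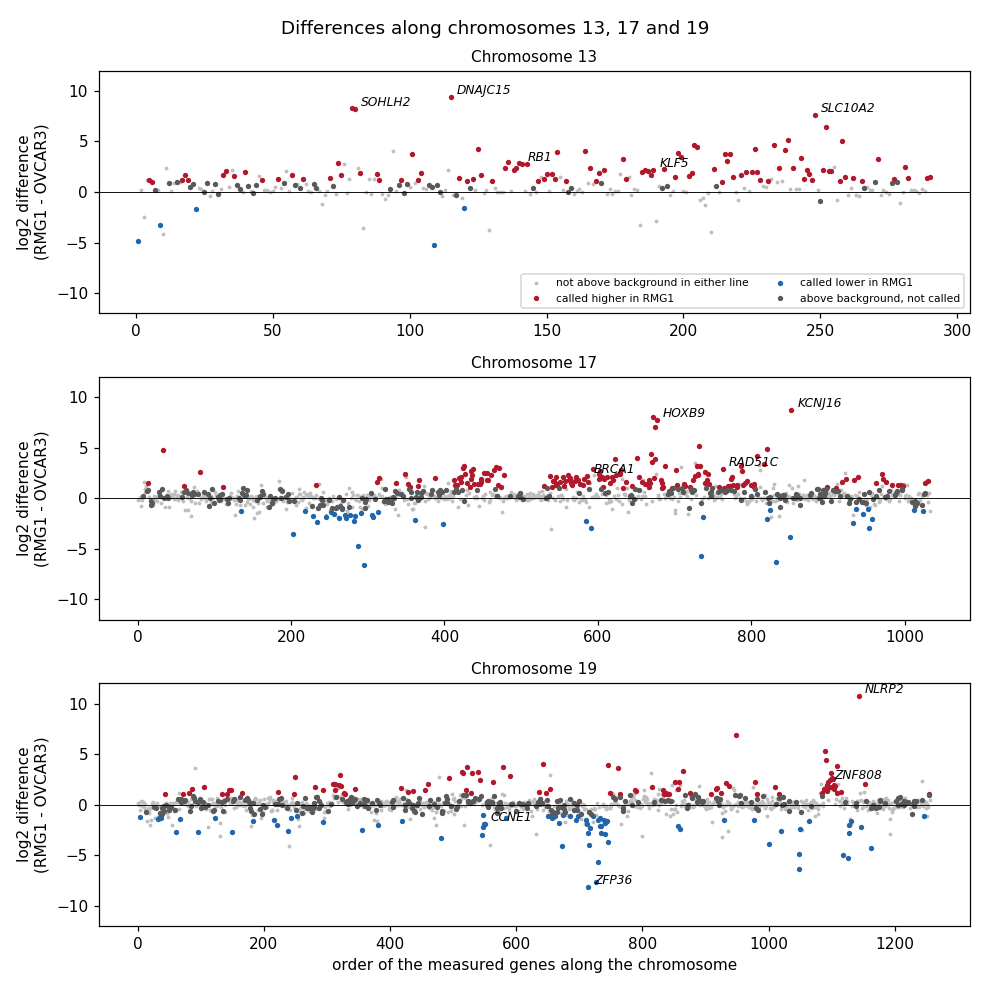
Log2 difference (RMG1 minus OVCAR3) of the measured genes in their order along chromosomes 13, 17 and 19, red where called higher, blue where called lower, dark grey where above background and not called, and light grey where not above background in either line. On chromosome 13 the red points outnumber the blue ones, HOXB9 lies in a run of higher genes on chromosome 17, and CCNE1 and ZNF808 lie in a lower and a higher run on chromosome 19.

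Some called genes also differed among the 3 arrays of a line, which received a different siRNA each, so siRNA and array cannot be told apart. CPNE8 itself read 13.76 after siControl and 10.67 and 11.92 after siCPNE8 #A and #B in RMG1, against 7.81, 7.31 and 8.03 in OVCAR3, where 1 of 3 arrays lay above background. All RMG1 values exceeded all OVCAR3 values (difference 4.40 ± 0.64 SE, adjusted p = 0.000558), with a difference of 3.58 without the RMG1 siControl array and 5.12 without the siCPNE8 #A array. BHLHE41 read 11.41, 11.15 and 11.42 in RMG1, against 14.51 after siControl and 12.99 and 13.63 after siBHLHE41 #A and #B in OVCAR3, 5.22-fold lower in RMG1 (adjusted p = 0.00047). Of the 4267 called genes, 105 had a range of more than 2 within a line, and the larger within-line range was 0.384 of the difference at the median. Those with the widest ranges were singled out after their values were seen. They include S100A8, the protease inhibitor PI3 (15.89 with siControl, 12.82 and 11.98 with the siBHLHE41 siRNAs in OVCAR3) and the lipase inhibitor G0S2 (12.28 with siControl, 8.43 and 10.56 with the siCPNE8 siRNAs in RMG1). The cytokine IL6 read 14.13, 12.35 and 13.75 in RMG1, against 10.34, 8.57 and 7.71 in OVCAR3, so both lines varied and still did not overlap.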

How the data were processed

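The authors deposited log2 values of 6 Affymetrix Clariom S arrays for 21448 transcript and 2903 control probes. The submitters' processing notes name RMA and Affymetrix Expression Console, which correct the background, normalize between arrays and summarise each transcript. Versions and genome build: not given in the sources used here. Platform annotation paired 17709 probes with 1 gene symbol (17687 genes) and left 3739 transcript probes unnamed. For the 20 genes with several probes, values were averaged and the largest p was kept.

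RMG1 and OVCAR3 were compared with limma 3.58.1 in R 4.3.3 (lmFit and eBayes, 2 groups of 3 arrays, 4 residual degrees of freedom) with Benjamini-Hochberg adjustment over all transcript probes, and the fit was tested on simulated data. Gene order, promoters and their coordinates came from RefSeq, GRCh38.p14. The genes named are the 5 markers, both siRNA targets, per direction the 30 with the largest difference among called genes without overlap and above background on all arrays of the brighter line, up to 4 per direction and list, and genes of runs; others are listed members or were chosen after their values were seen. Members and lists were chosen with earlier results of these data known.

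Alternatives were quantile normalization, centring, control probes included, dim probes left out, a variance trend, 4 groups, a replicate block, each array left out, other thresholds and genes counted once. The number of arrays limits the precision.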

Additional observations from a re-analysis of the deposited data

How the results depend on the processing

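The median difference of all transcript probes was 0.026 in the main fit and 0.095 with centring. The 2302 higher and 2609 lower probes became 2380 and 2550 with quantile normalization, 2517 and 2439 with centring, and 2307 and 2622 with a variance trend. With dim probes left out, which tests 8986 probes, they became 1671 and 1735, the smaller number following from fewer probes. Without the size requirement they became 3821 and 4112, and with a difference of at least 2 they became 851 and 972. Leaving out each array in turn gave between 2267 and 2345 higher and between 2575 and 2667 lower probes. In the fit of 4 groups that compares the siControl arrays alone they became 1610 and 1853, and 17 of 158 named genes lost their call, among them PLAT, NOG, IGF1R, KRT19, SERPINB5, BCL7A, SMARCD1, SMARCC1 and STEAP2. Leaving out single arrays also ended the calls of PLAT, KRT19, ELF3, B2M, HPRT1, CHMP2A, PGK1, SMARCD1 or BCL7A, so the housekeeping and epithelial counts rest in part on single arrays, and ELF3 was lost with quantile normalization and with centring. None of the 158 named genes changed direction under any of these fits. With the replicate block, which pairs siControl, #A and #B across the lines, they were 2302 and 2615. Deviations of arrays with the same arm correlated at 0.119 for siControl, 0.008 for #A and -0.001 for #B. The #A and #B siRNAs differ in target between the lines, so these values cannot decide whether the arrays were processed in pairs. The shares by chromosome were compared across fits after seeing the data. Differences of genes below background in 1 line are limited by that background, and 448 probes called higher and 608 called lower were above background on no array of the brighter line.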

Other observations

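The gene families below were singled out by symbol after their values were seen, and their counts are descriptions, beside 11.2% higher and 12.9% lower of all named genes. Of 64 measured histone genes, 14 were higher in RMG1 (21.9%) and 2 were lower (3.12%), with a median difference of 0.36, or 0.0 with dim lines set to background, and the copies of a histone can share signal. Of 8 HOXB genes 6 were higher (75%) and 0 lower. Of 8 HOXD genes 5 were called higher (62.5%) and 0 lower, but only HOXD10 and HOXD11 were above background on all RMG1 arrays, 4 of the 8 were below background on all 6 arrays, and the median with dim lines set to background was 0.0. HOXD10, which patterns posterior limb and trunk, read 9.19, 9.24 and 9.22 in RMG1, against 4.27, 4.50 and 4.01 in OVCAR3, at least 2.01-fold higher in RMG1 (limma adjusted p = 1.8e-07). All 6 HOXC genes were below background in both lines, and HOXA2 was lower in RMG1 (difference -3.07). Of 16 protocadherin beta genes, which encode adhesion proteins of neurons, 9 were higher (56.2%) and 0 lower, but only PCDHB8 was above background on all RMG1 arrays. Of 237 ZNF genes of chromosome 19, 61 were higher (25.7%) and 20 lower (8.44%), with a median difference of 0.33, or 0.0 with dim lines set to background.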
